A study of Mus musculus with 16 samples.

Results

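The genes described are the 10 that carry the step from D cyclins to E2F: the D cyclins Ccnd1, Ccnd2 and Ccnd3, the kinases Cdk4 and Cdk6, the pocket proteins Rb1, Rbl1 and Rbl2, and the transcription factors E2f1 and E2f3. They were taken by name, with earlier results of these data known, from the 24421 gene names of the StringTie tables, and all 10 passed the filter that left 17317 genes for testing. Levels are given in TPM, an abundance corrected for gene length, so that levels of different genes can be compared. A call below means an unadjusted limma p under 0.05, the threshold of the study, and differences are on the log2(scaled TPM + 0.1) scale.

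D cyclins bind CDK4 or CDK6, and the complex phosphorylates Rb and its relatives, which then release E2F factors to transcribe the genes of DNA synthesis. The inhibitor p16Ink4a, a product of the Cdkn2a locus, binds CDK4 and CDK6 and keeps them from their cyclins. In the dentate gyrus, a region of the hippocampus where stem cells still produce neurons in adult life, cyclin D2 is known for its part in the division of progenitors. Most cells of the region are granule neurons that no longer divide.

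Dentate gyrus RNA was measured in male C57BL/6 mice aged 1 year that were p16Ink4a +/+ (WT) or p16Ink4a -/- (KO). The mice either were sedentary (CTL) or had a running wheel in the cage for 12 days (RUN). The KO allele removes p16Ink4a and keeps p19Arf, and it was made in FVB mice and then crossed to C57BL/6. Genotype and condition give 4 groups of 4 libraries, written here as WT CTL, KO CTL, WT RUN and KO RUN without the p16 of their full names, and each library pools 2 mice, so that p-values measure the spread between such pools. Libraries carry the replicate numbers of the labels, 1 to 4, 5 to 8, 9 to 12 and 13 to 16 in the order of the groups above. The 5 pairwise comparisons keep the study's names: Set A (KO RUN against KO CTL), Set B (KO CTL against WT CTL), Set C (WT RUN against WT CTL), Set D (KO RUN against WT CTL) and Set E (KO RUN against WT RUN). Sets A and B share the KO CTL libraries, Sets B, C and D share the WT CTL libraries, and Sets A, D and E share the KO RUN libraries. The WT RUN libraries are shared by Sets C and E.

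Prox1 and C1ql2, which mark granule neurons, were at 58.1 to 187 and 199 to 610 TPM, as the labelled tissue has them. Cdkn2a, the targeted locus, was at 0 in 3 of 8 WT libraries and 5 of 8 KO libraries and did not exceed 0.586 TPM in any, which gives no check of the genotypes, and the gene row also covers p19Arf. Libraries 2 (WT CTL), 6 and 7 (both KO CTL) stood apart in 7 RNAs kept in the nucleus (among them Malat1 and Meg3), which summed to 474 to 969 TPM there and to 1814 to 2514 TPM in the other 13 libraries. Library 8 (KO CTL) had a summed level of 4 CA1 pyramidal neuron markers of 236 TPM against 64.5 to 140 TPM in the other 15. It also had the lowest Prox1 (58.1 TPM) and C1ql2 (199 TPM) of all libraries. The sum of 5 choroid plexus markers reached 211 TPM in KO CTL, against at most 61.6 TPM in other groups. In Set A (18.5% of all genes called) 3 of 5 oligodendrocyte markers fell, and 2 of 5 each for astrocytes, microglia and neural stem cells. Of 5 newborn neuron markers 2, Eomes and Igfbpl1, rose in Set A, and the same 2 were higher in Set E (3.87%). In Set B (6.69%) 2 of 5 each for neural stem cells, oligodendrocyte precursors and microglia were higher. In Set D (8.63%) 3 of 4 ependyma markers were higher. No called marker of these lists went the other way, and their part was not tested. Relative coverage, a measure of depth, was 0.90 to 1.95 in the 8 sedentary libraries and 0.621 to 0.893 in the 8 running libraries, so depth moved with running and its part in the running results was not tested. In bulk RNA, fewer cells that express a gene and less RNA per cell cannot be told apart.

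The promoters of 4 genes are shown first, because Rbl1 and E2f3 passed the threshold for running, Cdk6 was lower in KO and Cdk4 gave no call in any comparison. Each run is the RefSeq window (GRCm38.p6, which is mm10) from 250 bases before to 50 bases after an annotated start site, read 5′ to 3′ on the gene's strand, with matches in capitals. The words searched, on both strands, were TTTCCCGC, TTTGGCGC, TTTCGCGC and TTTGCCGC, forms of the E2F site, and CACGTG, the E-box that MYC and its relatives bind, and no match of an E2F word overlapped one of the E-box. Rbl1 lies on chromosome 2 at 157145894 to 157204534 on the minus strand, and its window is chr2:157204485-157204784. E2f3 lies on chromosome 13 at 29906575 to 29986063 on the minus strand, and the window of its first start site is chr13:29986014-29986313. Cdk6 lies on chromosome 5 at 3344312 to 3522225 on the plus strand, and its window, chr5:3343643-3343942, has a start site 419 bases upstream of the gene's start in the deposited tables. Cdk4 lies on chromosome 10 at 127063603 to 127067282 on the plus strand, with the window chr10:127063285-127063584.
Rbl1 promoter: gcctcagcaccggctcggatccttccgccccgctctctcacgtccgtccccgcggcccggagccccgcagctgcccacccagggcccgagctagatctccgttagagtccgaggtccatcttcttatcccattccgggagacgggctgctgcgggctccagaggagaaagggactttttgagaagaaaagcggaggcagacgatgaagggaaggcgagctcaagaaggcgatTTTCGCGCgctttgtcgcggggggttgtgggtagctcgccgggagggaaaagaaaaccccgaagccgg
E2f3 promoter: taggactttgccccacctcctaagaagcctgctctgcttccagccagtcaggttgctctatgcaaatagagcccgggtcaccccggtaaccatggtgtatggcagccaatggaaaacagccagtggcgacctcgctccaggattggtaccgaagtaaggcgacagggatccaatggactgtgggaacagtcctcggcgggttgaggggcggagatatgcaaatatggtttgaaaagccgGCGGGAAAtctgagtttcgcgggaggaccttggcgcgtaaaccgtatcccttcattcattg
Cdk6 promoter: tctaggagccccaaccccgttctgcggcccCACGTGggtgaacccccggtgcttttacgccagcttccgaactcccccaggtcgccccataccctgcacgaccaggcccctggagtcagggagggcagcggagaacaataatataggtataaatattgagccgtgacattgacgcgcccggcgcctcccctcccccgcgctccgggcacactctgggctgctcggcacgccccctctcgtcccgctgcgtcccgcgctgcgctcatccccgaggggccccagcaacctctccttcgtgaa
Cdk4 promoter: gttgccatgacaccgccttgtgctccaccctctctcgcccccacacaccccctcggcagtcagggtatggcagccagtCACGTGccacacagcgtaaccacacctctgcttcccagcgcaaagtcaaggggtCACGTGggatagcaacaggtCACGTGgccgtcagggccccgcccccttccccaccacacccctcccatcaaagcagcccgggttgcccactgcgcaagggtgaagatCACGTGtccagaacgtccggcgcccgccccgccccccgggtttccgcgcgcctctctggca
Rbl1 holds the E2F word TTTCGCGC with its first base 18 bases before the start site, and E2f3 holds TTTCCCGC on the opposite strand from 11 bases before the start site. An E2F word was present in 2.26% of 32851 windows of this length. Cdk4 holds 4 E-boxes and Cdk6 holds 1, a word found in 7.15% of the windows. The second annotated window of E2f3 also held an E-box. Among the 7 genes with a window, E2f1, Rbl2 and Ccnd3 held none of these words in the bases searched, and for E2f1 these surround a start site 466 bases downstream of the gene's start in the deposited tables, so that the bases before that start were not searched. Ccnd1, Ccnd2 and Rb1 had no window in the table used.

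The 10 genes spanned a wide range of levels, and one member of each family far exceeded another. Ccnd2, the most abundant, averaged 72.3 TPM ± 10.3 (SD, n = 16) and Cdk4 68.0 ± 6.51. These neighbours were not separable, since Ccnd2 was the higher in 8 of 16 libraries. Next came Rbl2 at 33.4 ± 2.84, below Cdk4 in all 16 libraries, then E2f3 at 27.9 ± 3.41, Rb1 at 27.2 ± 2.85, Ccnd1 at 27.1 ± 8.08 and Ccnd3 at 23.5 ± 1.78 TPM, whose ranges overlapped from each to the next. E2f1 at 6.02 ± 1.41 TPM lay apart from both its neighbours, Ccnd3 and Cdk6. The lowest were Cdk6 at 1.64 ± 0.684 and Rbl1 at 0.923 ± 0.253 TPM, with Cdk6 the higher in 15 of 16 libraries. Mean coverage per base, the depth behind these values, was only 1.32 to 3.39 for Rbl1 and 1.96 to 7.54 for Cdk6, against 107 to 519 for Ccnd2.

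**Figure D1:**
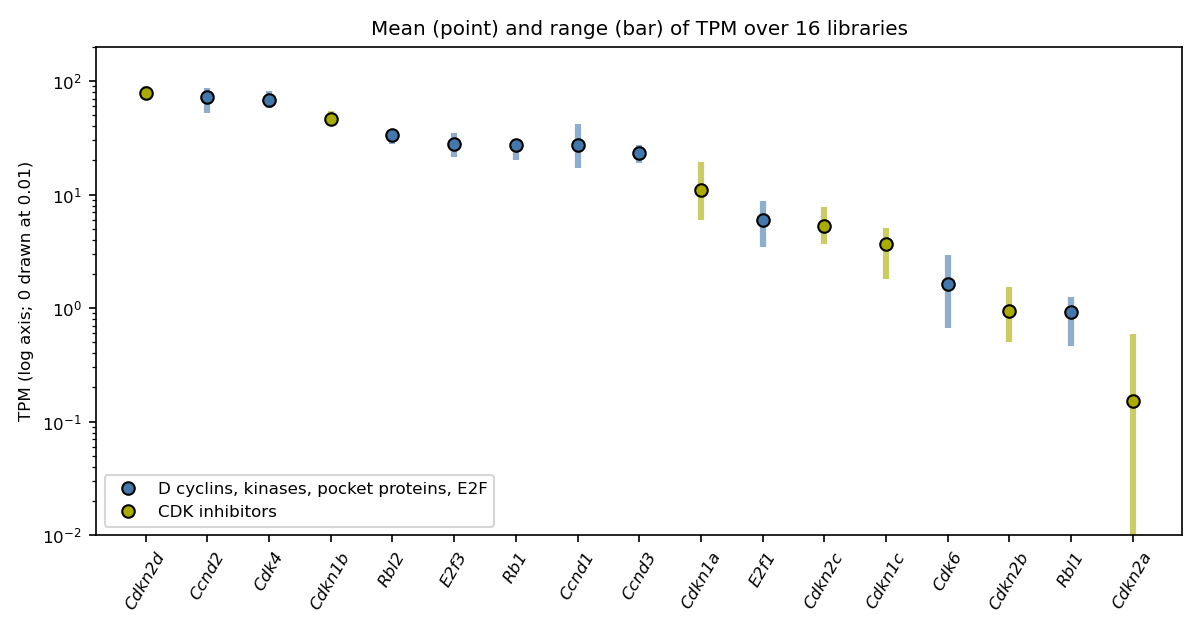
Mean (points) and range (bars) of TPM over the 16 libraries on a log axis for the 10 genes and for 7 CDK inhibitors, with a value of 0 drawn at 0.01. Ccnd2 and Cdk4 are near 70 TPM like the inhibitor Cdkn2d, Cdk6 and Rbl1 are near 1 TPM, and Cdkn2a is the lowest.

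Set beside their inhibitors, the 2 kinases summed on average to less than the Ink4 family in each group, though not in every library. Cdk6 made up 1.04 to 3.75% of the summed TPM of Cdk4 and Cdk6. The 4 Ink4 genes summed to 74.8 to 97.7 TPM, of which Cdkn2d, the gene of p19Ink4d, gave 89.8 to 94.99% and Cdkn2a 0 to 0.649%. The ratio of summed Ink4 TPM to summed Cdk4 and Cdk6 TPM was 1.17 ± 0.213 in WT CTL, 1.39 ± 0.153 in KO CTL, 1.16 ± 0.0911 in WT RUN and 1.18 ± 0.107 in KO RUN (SD, n = 4 each), and it ran from 0.931, in a WT CTL library, to 1.52. Ccnd2 contributed 52.8 to 66.2% of all D cyclin TPM, Ccnd1 14.1 to 29.8% and Ccnd3 17.0 to 24.2%. Among the pocket proteins Rb1 gave 38.2 to 49.8% and Rbl1 0.789 to 1.91% of the family's TPM.

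Of the 10 genes, 3 passed an unadjusted p under 0.05 in Set A, where 18.5% of all tested genes did, and 1 in Set B, against a background of 6.69%. In Set C 1 gene passed (background 4.81%), in Set D 2 (8.63%) and in Set E none (3.87%). Running averaged over genotypes gave 3 (17.5%), genotype averaged over running gave 1 (6.94%) and the interaction gave none (5.48%). Counts of 0 to 3 among 10 genes are near these shares and are not read as a property of the 10, and none of the 10 had an adjusted p under 0.05 in limma. Among all genes, an adjusted p under 0.05 was reached by 3 in Set A, 1 in Set E and 138 for running averaged over genotypes, and by none in Sets B, C and D. After scaling, the values of the groups did not overlap for Ccnd3 and Rbl1 in Set A, where 10.4% of all tested genes did not, and for none of the 10 in Set B (2.7%), Set C (3.34%), Set D (5.68%) or Set E (2.46%). The median log2 difference of the 10 genes was 0.01 in Set A, beside 0.02 over all tested genes.

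**Figure D2:**
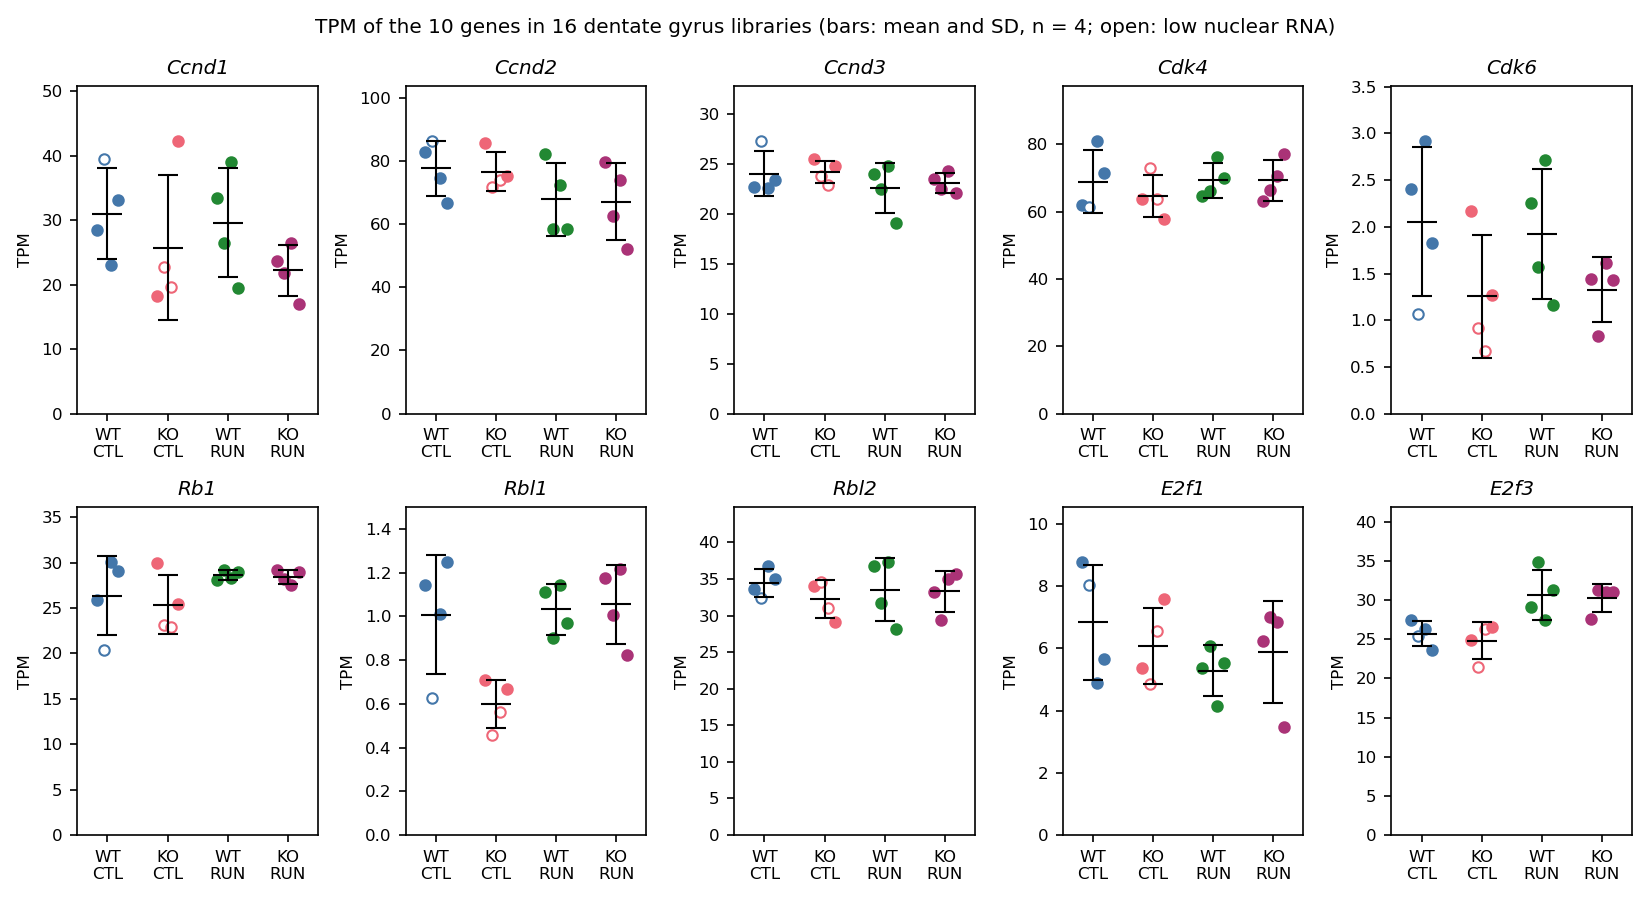
TPM of each gene in the 16 libraries, 1 point per library in 4 groups, with the mean and SD (n = 4) as bars and the 3 libraries low in nuclear RNA as open points. E2f3 is at 27.45 to 34.8 TPM in the running libraries and 21.5 to 27.47 in the sedentary ones, and Rbl1 is at 0.459 to 0.709 TPM in KO CTL.

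Among the D cyclins, Ccnd2, the family member tied to progenitor division, was lower after running. Its TPM was 82.8, 86.4, 74.7 and 66.6 in WT CTL and 85.7, 71.9, 73.8 and 75.1 in KO CTL, against 82.2, 58.3, 72.4 and 58.6 in WT RUN and 79.6, 62.6, 74.1 and 52.1 in KO RUN. The 2 lowest values of each running group lay below every sedentary value, and the others lay within the sedentary range. On the log2(scaled TPM + 0.1) scale, Ccnd2 fell by 0.24 with running averaged over genotypes (SE 0.09, 0.845-fold, limma p = 0.0179, adjusted p = 0.1995, exact permutation p = 0.0294). Within genotypes the difference was -0.27 in Set A (95% interval -0.55 to 0.002) and -0.21 in Set C (-0.51 to 0.08), neither of them a call. The averaged difference stayed a call, between -0.29 and -0.19, with any 1 library left out. Without the 3 libraries low in nuclear RNA it was -0.20 (SE 0.11) and no longer a call. In Set B the 95% interval of the log2 difference was -0.18 to 0.27, and in Set E it was -0.34 to 0.32.

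Ccnd1, the D cyclin induced by mitogens, varied widely among libraries of 1 group. The values were 28.4, 39.5, 23.0 and 33.0 TPM in WT CTL, 18.2, 22.7, 19.6 and 42.3 in KO CTL, 33.5, 26.5, 39.0 and 19.4 in WT RUN and 23.6, 21.8, 26.4 and 17.0 in KO RUN. Its highest value, 42.3 TPM, came from library 8, the one high in CA1 markers. The comparison past the threshold was Set D, where Ccnd1 fell by 0.47 (SE 0.19, limma p = 0.0372, adjusted p = 0.536, exact permutation p = 0.0857). The Set D call was lost without any one of libraries 1, 2, 4, 13, 14 and 16, with differences from -0.50 to -0.32, and without the 3 libraries low in nuclear RNA (-0.32). It was also lost with no filter, without the variance trend and in 1 fit of all 16 libraries, at -0.47 in each. In Set B the difference was -0.27 (95% interval -0.89 to 0.36), and -0.53 and a call without library 8. Without the 3 libraries low in nuclear RNA the Set B difference was 0.04 (SE 0.38), with the sign turned and no call. In Set E it was -0.38 (-0.84 to 0.09), and -0.56 and a call without library 12. Averaged over running, Ccnd1 differed between genotypes by -0.32 (95% interval -0.70 to 0.06), which became a call without library 3, 8 or 12 (-0.39, -0.45 and -0.40). Without the 3 libraries low in nuclear RNA this averaged difference was -0.22 (SE 0.21) and no call.

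Ccnd3 was the steadiest of the D cyclins, at 19.1 to 27.3 TPM in all 16 libraries. It fell by 0.13 in Set A (SE 0.06, limma p = 0.0456, adjusted p = 0.265), and after scaling the KO CTL values, 24.9 to 25.4, all lay above the KO RUN values, 21.7 to 24.1 (exact permutation p = 0.0286, the smallest that 70 splits allow). In TPM as deposited the groups overlapped, at 22.9 to 25.5 and 22.1 to 24.3, and the difference was -0.07 and no call. With 1 library left out the difference ran from -0.16 to -0.11 and stayed a call in 1 of 8 fits, that without library 15, and without the 3 libraries low in nuclear RNA it was -0.14 and no call. The Set A call was also lost in 1 fit of all 16 libraries (-0.135) and with a pseudocount of 1 (-0.13). In Set C the 95% interval was -0.35 to 0.14. Running averaged over genotypes gave -0.12 (95% interval -0.24 to 0.01, exact permutation p = 0.0457), which was no call in limma. This averaged difference became a call in 2 of 16 left-out fits, and was -0.07 and no call without the 3 libraries low in nuclear RNA. The Set B difference, 0.08 and no call, became a call in 1 of 8 left-out fits.

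Cdk4, the main partner of the D cyclins by level, gave no call in any comparison. Its TPM averaged 68.9 ± 9.39 in WT CTL, 64.6 ± 6.20 in KO CTL, 69.3 ± 5.24 in WT RUN and 69.3 ± 6.06 in KO RUN (SD, n = 4 each), and the 4 ranges overlapped. The largest of its 5 pairwise log2 differences was 0.04 (Set A, 95% interval -0.17 to 0.25), and the intervals of the others lay within -0.26 and 0.21. Averaged over running, the interval for genotype was -0.14 to 0.12. Without the 3 libraries low in nuclear RNA the difference was larger, at 0.17 (SE 0.09) in Set A and -0.18 (SE 0.11) in Set B, neither of them a call.

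Cdk6, the second kinase of the pair, was lower in KO mice. It was at 2.41, 1.06, 2.92 and 1.82 TPM in WT CTL and 2.26, 1.57, 2.72 and 1.16 in WT RUN, against 2.17, 0.916, 0.669 and 1.27 in KO CTL and 1.44, 0.826, 1.61 and 1.43 in KO RUN. Genotypes overlapped in both conditions, with medians of 2.04 TPM over the 8 WT and 1.35 over the 8 KO libraries. Averaged over running, Cdk6 fell by 0.56 in KO (SE 0.24, 0.68-fold, limma p = 0.034, adjusted p = 0.696, exact permutation p = 0.0498). Neither Set B (-0.64, 95% interval -1.49 to 0.20) nor Set E (-0.47, -1.13 to 0.19) gave a call alone, although Set B became one without library 2 or 5 (-0.89 and -0.91) and Set E without library 12 (-0.67). The 3 libraries low in nuclear RNA had 0.669 to 1.06 TPM of Cdk6, against 1.27 to 2.92 in the other 5 sedentary libraries. Without them the genotype difference was -0.45 (SE 0.22) and no longer a call, while that of Set D went from -0.55 and no call to -0.79 (SE 0.26) and a call. The averaged call was also lost without any one of libraries 1, 3, 6, 7, 9, 11 and 14, with differences from -0.52 to -0.45. Running left no difference past the threshold, with an averaged 95% interval of -0.50 to 0.52. Without the 3 libraries low in nuclear RNA the averaged running difference was -0.34 (SE 0.22), and that of Set A went from 0.09 to -0.36. Neither of them was a call.

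**Figure D3:**
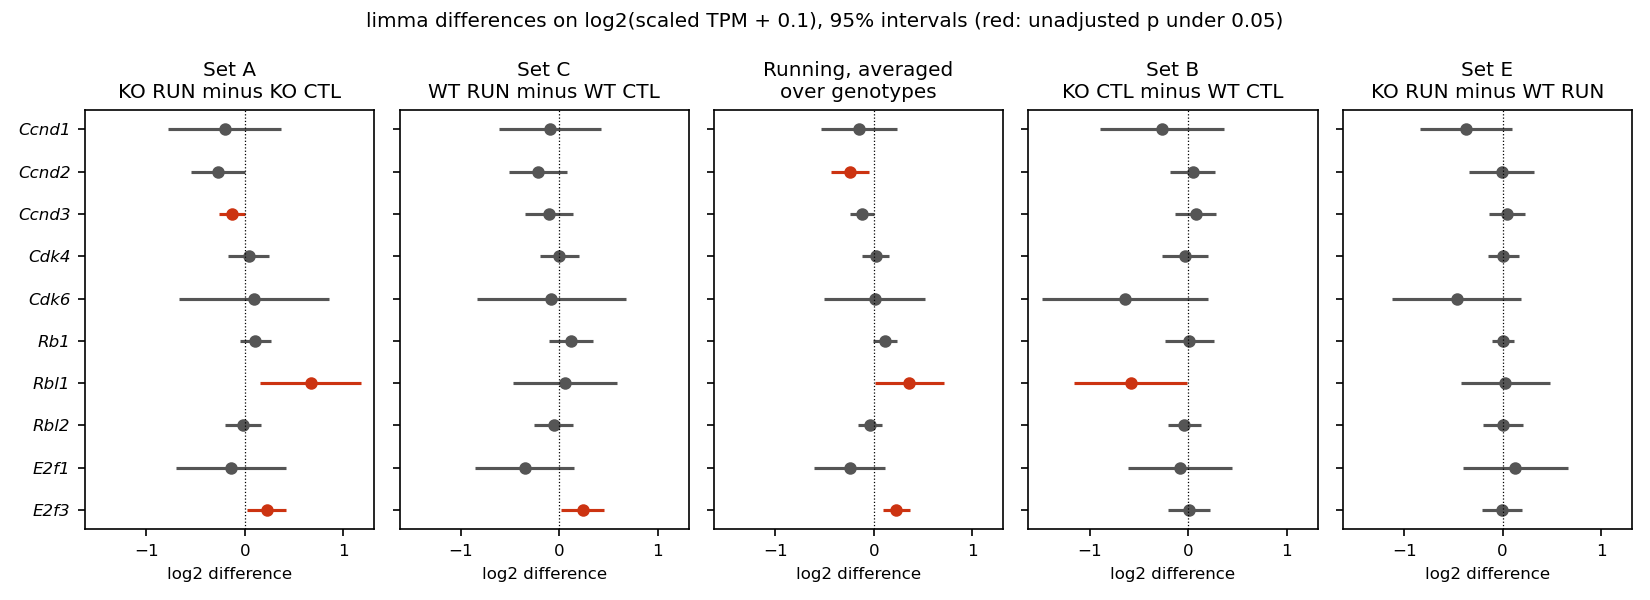
limma log2 differences (points) with 95% intervals (lines) of the 10 genes in Sets A, C, B and E and for running averaged over genotypes, in red where the unadjusted p is under 0.05. E2f3 is at 0.22, 0.24 and 0.23 in the 3 running panels, and the intervals of Cdk4 and Rbl2 are short and include 0 in every panel.

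Rbl1, the gene of p107 and the pocket protein that E2F itself is known to induce, was lowest in sedentary KO mice. The values were 0.709, 0.459, 0.562 and 0.667 TPM in KO CTL, against 1.14, 0.627, 1.01 and 1.25 in WT CTL, 1.113, 0.90, 1.145 and 0.969 in WT RUN and 1.17, 1.01, 1.22 and 0.822 in KO RUN. Every KO RUN value lay above every KO CTL value, whereas WT CTL and KO CTL overlapped through library 2. In Set A Rbl1 rose by 0.67 on the log2 scale (SE 0.23, 1.59-fold, limma p = 0.0162, adjusted p = 0.215, exact permutation p = 0.0286, the smallest possible). In Set B it fell by 0.59 (SE 0.25, p = 0.0456, adjusted p = 0.625, exact permutation p = 0.0857). Set C gave 0.05 (95% interval -0.48 to 0.58) and Set E 0.03 (-0.42 to 0.48). The difference between Sets A and C, the interaction, was 0.61 (SE 0.30, 95% interval -0.03 to 1.25, adjusted p = 0.797 in limma), which is no call with all libraries and became one without library 2 or 16 (0.783 and 0.725).

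The 3 libraries low in nuclear RNA held the 3 lowest Rbl1 levels of all 16, at 0.459 to 0.627 TPM, against 0.667 to 1.25 in the other 13. Without them, Set A gave 0.52 (SE 0.26) with 2 KO CTL libraries left and Set B gave -0.61 (SE 0.25), neither of them a call. Running averaged over genotypes, a call at 0.36 (SE 0.16, adjusted p = 0.27 in limma), moved to 0.16 (SE 0.17), and the interaction was 0.64 (SE 0.29). Set A kept its call with any 1 library left out (0.57 to 0.78) and lost it under quantile normalization (0.39), while Set B kept it in 1 of 8 left-out fits, that without library 2 (-0.755), and lost it in the other 7 (-0.64 to -0.49) and under quantile normalization (-0.41). The averaged running call was lost without any one of libraries 2, 5, 6, 7, 8, 9, 11, 13, 14 and 15 (0.29 to 0.37), and under quantile normalization it was 0.20 and no call.

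**Figure D4:**
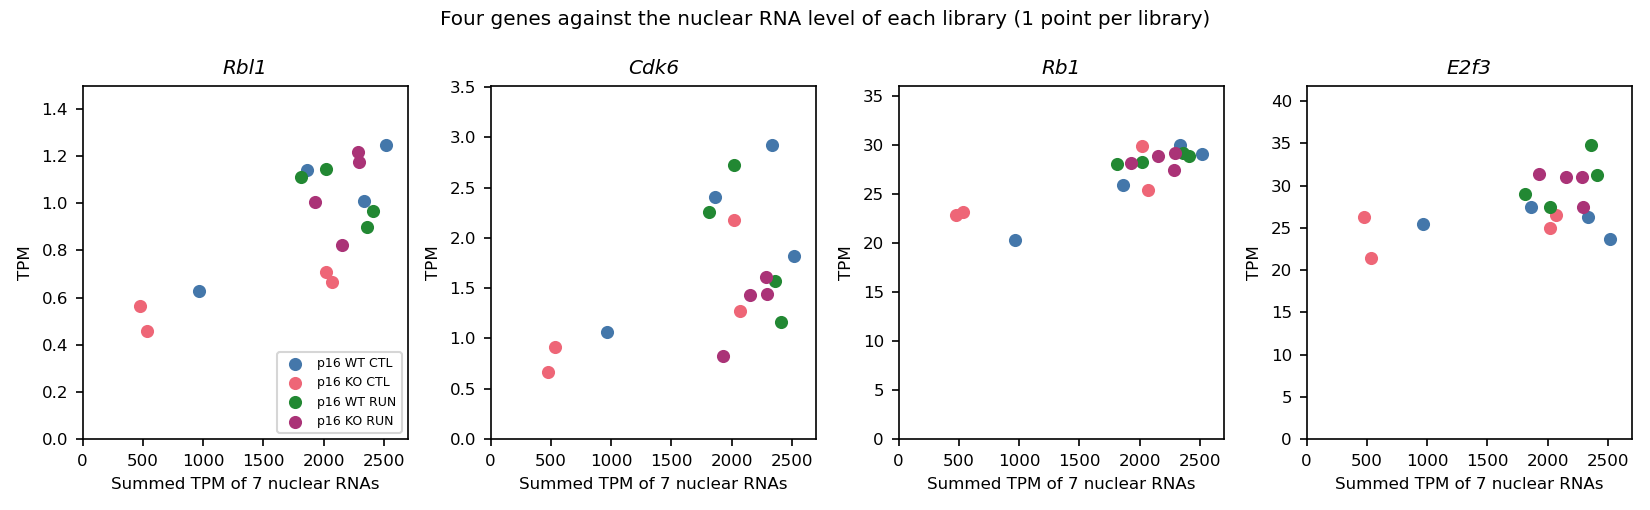
TPM of Rbl1, Cdk6, Rb1 and E2f3 (vertical axes) against the summed TPM of 7 nuclear RNAs (horizontal axes), 1 point per library, coloured by group. The 3 libraries at 474 to 969 TPM of nuclear RNA have the lowest Rbl1 and Rb1, and their E2f3, 21.5 to 26.3 TPM, is within or just below that of the other sedentary libraries.

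Rb1, the retinoblastoma gene itself, did not pass the threshold in any comparison. It averaged 26.4 TPM ± 4.38 in WT CTL, 25.4 ± 3.24 in KO CTL, 28.6 ± 0.523 in WT RUN and 28.5 ± 0.78 in KO RUN (SD, n = 4 each). The 3 libraries low in nuclear RNA were at 20.4 to 23.2 TPM, below the other 5 sedentary libraries, at 25.4 to 30.05 TPM, and the 8 running libraries, at 27.5 to 29.2 TPM. Running averaged over genotypes gave 0.11 (95% interval -0.01 to 0.24), and became a call without library 3, 4 or 5 (at most 0.14), as Set A did without library 5 (0.16, from 0.11). Without the 3 libraries low in nuclear RNA the averaged value fell to 0.03 (SE 0.04), with 0.03 in Set A and 0.03 in Set C, none of them a call. Genotype averaged over running gave 0.01 (-0.12 to 0.13). On the opposite strand, Rcbtb2 (26.4 TPM) overlaps the span of Rb1 in the deposited tables by 12342 bases and Lpar6 (3.92 TPM) by 5400. The lowest coordinate of Rb1 is 73183673 in GENCODE and 73195502 in the deposited tables.

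Rbl2, the gene of the pocket protein of resting cells and the most abundant of its family, was at 28.2 to 37.3 TPM in all 16 libraries. Its pairwise log2 differences ran from -0.06 to 0.01. The widest interval was that of Set E, -0.20 to 0.21, and that of Set C was -0.25 to 0.14. Aktip (115 TPM) lies on the opposite strand over 12061 bases of the Rbl2 span.

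E2f3, an activator E2F, rose with running in both genotypes, and its averaged running difference was a call in every alternative fit made. In TPM as deposited it was 27.5, 25.4, 26.3 and 23.7 in WT CTL and 24.95, 21.5, 26.3 and 26.5 in KO CTL, against 29.1, 34.8, 27.45 and 31.3 in WT RUN and 27.5, 31.3, 31.0 and 31.1 in KO RUN. The highest sedentary value (library 1, 27.47) and the lowest running value (library 11, 27.45) lay side by side, and otherwise the 8 running libraries were all above the 8 sedentary ones. After scaling, the sedentary range was 22.8 to 28.6 and the running range 26.7 to 35.1. Averaged over genotypes, running raised E2f3 by 0.23 (SE 0.06, 1.17-fold, 95% interval 0.09 to 0.37, limma p = 0.0026, adjusted p = 0.104, exact permutation p = 0.00449 over 4900 splits within genotypes).

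The running difference of E2f3 was 0.22 in Set A (limma p = 0.0321, exact permutation p = 0.0857), 0.24 in Set C (p = 0.0377, exact permutation p = 0.0571) and 0.23 in Set D (p = 0.0164, exact permutation p = 0.0571), with adjusted p of 0.243, 0.985 and 0.438. The interaction was -0.01 (95% interval -0.30 to 0.27). Genotype averaged over running gave 0.00 (interval -0.14 to 0.14). Without the 3 libraries low in nuclear RNA the averaged difference was 0.24 (SE 0.07), that of Set A 0.21 (SE 0.09) and that of Set C 0.26 (SE 0.11), all of them calls. With any 1 library left out the averaged difference ranged from 0.20 to 0.26. In the smaller sets the call was lost without library 5, 6, 14, 15 or 16 in Set A (0.164 to 0.215) and without library 3, 4, 10 or 12 in Set C (0.16 to 0.24), and it was kept without any 1 library in Set D. Under quantile normalization the call was also lost in Set A (0.19) and Set C (0.23). Without the variance trend it was lost in Set C (0.24).

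E2f1, the E2F first found as a partner of Rb, did not follow E2f3. It was at 8.77, 8.02, 4.87 and 5.66 TPM in WT CTL, 5.36, 4.85, 6.57 and 7.57 in KO CTL, 5.36, 6.08, 4.14 and 5.54 in WT RUN and 6.23, 7.00, 6.85 and 3.48 in KO RUN. Running averaged over genotypes gave -0.25 (95% interval -0.61 to 0.12). Set C gave -0.35 (-0.86 to 0.15) and Set E 0.13 (-0.41 to 0.66), neither of them a call, and each became a call in 1 of 8 left-out fits. The ratio of E2f3 to E2f1 TPM was 3.97 ± 1.07 in WT CTL, 4.15 ± 0.509 in KO CTL, 5.86 ± 0.532 in WT RUN and 5.59 ± 2.23 in KO RUN (SD, n = 4 each), with the highest value, 8.93, in library 16. The medians were 3.675, 4.215, 5.692 and 4.502 in the same order, and that of KO RUN lay within the WT CTL range, 3.13 to 5.40.

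Around the 10 genes, 53 of 54 genes on 6 lists of pathway neighbours could be tested, with E2f7 below the filter. In Set A 10 of the 53 rose and 5 fell (28.3%, against 18.5% of all genes), and without the 3 libraries low in nuclear RNA 6 rose and 1 fell (13.2%, against 8.5% of all genes). In Sets B and C 3 each were past the threshold (5.66%, against 6.69% and 4.81% of all genes), and in Sets D and E 4 each (7.55%, against 8.63% and 3.87%). For running averaged over genotypes 7 rose and 3 fell (18.9%, against 17.5%), and without the 3 libraries 3 rose and 2 fell (9.43%, against 8.66%). For the interaction 5 were past the threshold, all higher (9.43%, against 5.48%), and without the 3 libraries 6 were higher and 4 lower (18.9%, against 7.25%). For genotype averaged over running 1 was higher and 1 lower in KO (3.77%, against 6.94%). Without the 3 libraries 0 were higher and 1 lower (1.89%, against 5.08%). The counts of Sets A, D and E and of the interaction include Cdk1, which passed the filter only through its level in KO RUN. So does the count for genotype with all libraries. Only Cdkn1a had an adjusted p under 0.05 in any comparison.

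Among the 7 CDK inhibitors, Cdkn1a, the gene of p21 and a target of p53, rose with running in both genotypes. It averaged 8.72 TPM ± 2.07 in WT CTL, 7.25 ± 0.922 in KO CTL, 13.0 ± 3.37 in WT RUN and 15.3 ± 4.42 in KO RUN (SD, n = 4 each). The log2 difference was 0.76 averaged over genotypes (SE 0.17, limma adjusted p = 0.0457, exact permutation p = 0.00122), 0.97 in Set A (exact permutation p = 0.0286) and 0.56 in Set C (exact permutation p = 0.0857). Without the 3 libraries low in nuclear RNA the averaged value was 0.78 (SE 0.19, adjusted p = 0.195 in limma), still a call. Cdkn2d fell by 0.19 in Set A (exact permutation p = 0.0571) and was higher by 0.24 in Set B (p = 0.0857 in the same test), and Cdkn1b, the gene of p27, fell by 0.11 in Set A (p = 0.0286). The other 4 inhibitors passed no comparison.

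Of the 9 genes that activate the kinases or turn over cyclin D, 2 fell in Set A, namely Fbxo31 by 0.12 and Cryab by 0.37, both known as parts of ubiquitin ligases for cyclin D1, a count near the 18.5% of all genes called there. Among 7 E2F partners and other E2F genes, Tfdp1, which dimerises with E2F factors, rose by 0.27 and E2f4 by 0.12 in Set A (exact permutation p = 0.0286 for each), and Tfdp1 rose by 0.20 for running averaged over genotypes (p = 0.00612). Without the 3 libraries low in nuclear RNA the averaged Tfdp1 difference was 0.13 (SE 0.05), still a call. Its Set C difference, no call, went from 0.13 to 0.02. In Set D the repressor E2f8 was higher by 0.91 (exact permutation p = 0.0286) and E2f6 lower by 0.30 (p = 0.0571). Of 6 genes of the DREAM or MuvB complex, which holds pocket proteins on promoters of resting cells, Mybl2, its partner in dividing cells, fell by 1.14 in Set B (exact permutation p = 0.0857) and rose by 1.47 in Set A (p = 0.0286), at 0.127 to 1.113 TPM. Lin52 fell by 0.25 in Set A, and Lin37 fell by 0.19 in Set C and was higher by 0.22 in Set E.

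Beside Lin37, the genes past the threshold in Set E were 2 cyclins and a kinase of later phases. Cdk1, the mitotic kinase, was at 0.20 to 0.372 TPM in KO RUN and at 0 to 0.143 TPM in the other groups. Its mean of 0.106 TPM over the 16 libraries reached the filter of 0.1 TPM only through KO RUN (mean 0.266 TPM, against 0.0239 to 0.0686 in the other groups), so these levels are a description and its tests are not read. Ccna2, the cyclin of S phase and of entry into mitosis, averaged 2.44 TPM ± 0.408 in KO RUN, 1.58 ± 0.283 in WT RUN, 1.24 ± 0.59 in KO CTL and 1.89 ± 0.80 in WT CTL (SD, n = 4 each), where the highest value, 2.498 TPM, lay within the KO RUN range of 2.185 to 3.05 TPM. The difference was 0.61 in Set E and 0.97 in Set A (exact permutation p = 0.0286 for each), and it was no call in Set D (0.45, SE 0.31) or Set C (-0.16, SE 0.32). With the 3 libraries low in nuclear RNA left out, Ccna2 was no call in Set D (0.13, SE 0.19) and a call in Set C (-0.48, SE 0.21). Ccna1 was higher by 1.28 in Set E (SE 0.56, exact permutation p = 0.0857) at no more than 0.715 TPM, and lower by 1.42 in Set C (exact permutation p = 0.114). Apart from Cdk1, the interaction was past the threshold for Ccna1 (1.73, SE 0.70), Ccna2 (1.13, SE 0.46), Mybl2 (1.43, SE 0.47) and Lin37 (0.24, SE 0.08), all with an adjusted p of 0.797. Without the 3 libraries low in nuclear RNA it remained a call for Ccna2 (0.92, SE 0.28), Mybl2 (1.16, SE 0.50) and Lin37 (0.29, SE 0.10). That of Ccna1 was 1.16 (SE 0.81) and no longer a call, and its Set C difference, -1.41 (SE 0.62), was no call either. Interaction calls gained without those libraries were Mcm7 (0.42) and Tfdp1 (0.26), which were higher, and Cdkn2d (-0.22), Cryab (-0.59), Gsk3b (-0.22) and Lin52 (-0.21), which were lower.

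The 6 markers of proliferating cells, Cdk1 among them, summed to 4.12 to 5.72 TPM in KO RUN, 1.66 to 3.85 in WT CTL, 1.97 to 2.77 in KO CTL and 2.28 to 4.21 in WT RUN. Mki67 averaged 2.03 TPM ± 0.178 in KO RUN and 1.41 ± 0.301 in WT RUN, and Top2a 0.981 ± 0.265 and 0.278 ± 0.171 (SD, n = 4 each). Ccnb1, like Cdk1, reached the filter only through KO RUN. Of 18 S phase genes under E2F control, 4 rose in Set A (Cdt1 by 0.70, Mcm5 by 0.39, Mcm7 by 0.20 and Tk1 by 1.17) and none fell, a count near the 18.5% of all genes called there. The median difference was 0.21 over the 18 beside 0.02 over all genes. In Set B Mcm5, a helicase subunit, fell by 0.49 (exact permutation p = 0.0286), and the median of the list was -0.18 beside -0.01 over all genes. Averaged over running, Mcm5 was lower in KO by 0.34 (adjusted p = 0.696 in limma, exact permutation p = 0.00449), and by 0.30 and still a call without the 3 libraries low in nuclear RNA. None of the 18 passed in Sets C, D and E. Averaged over genotypes, Tk1 rose by 0.78 and Mcm5 by 0.24 with running and Pcna, the sliding clamp of replication, fell by 0.10 (exact permutation p = 0.0176, 0.0192 and 0.0114). None of these averaged differences was a call without the 3 libraries low in nuclear RNA, at 0.39 for Tk1, 0.20 for Mcm5 and -0.04 for Pcna. Without the same libraries, 9 Set A calls were lost, with the difference going from 0.97 to 0.44 for Ccna2, 1.17 to 0.62 for Tk1, 0.39 to 0.37 for Mcm5, 0.12 to 0.08 for E2f4, -0.37 to -0.35 for Cryab, -0.25 to -0.16 for Lin52, -0.19 to -0.11 for Cdkn2d, -0.12 to -0.07 for Fbxo31 and -0.11 to -0.08 for Cdkn1b. The Set B calls of Mcm5 (-0.49 with and without them) and Mybl2 (-1.14 to -0.87) were lost too. Calls gained were Cdk2, a kinase of S phase, in Set A (0.11 to -0.55, with the sign reversed), Cryab (0.36 to 0.51), Lin52 (0.21 with and without them) and Tfdp1 (-0.07 to -0.18) in Set B, Cryab (0.07 to 0.24) beside Ccna2 in Set C, and Cdkn2d (0.04 to 0.12) and Mcm4 (0.17 to 0.19) in Set D. For running averaged over genotypes, calls were gained for Cdc6 (-0.56 to -0.85), of the S phase list, and Ccna1 (-0.55 to -0.91), both lower after running.

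**Figure D5:**
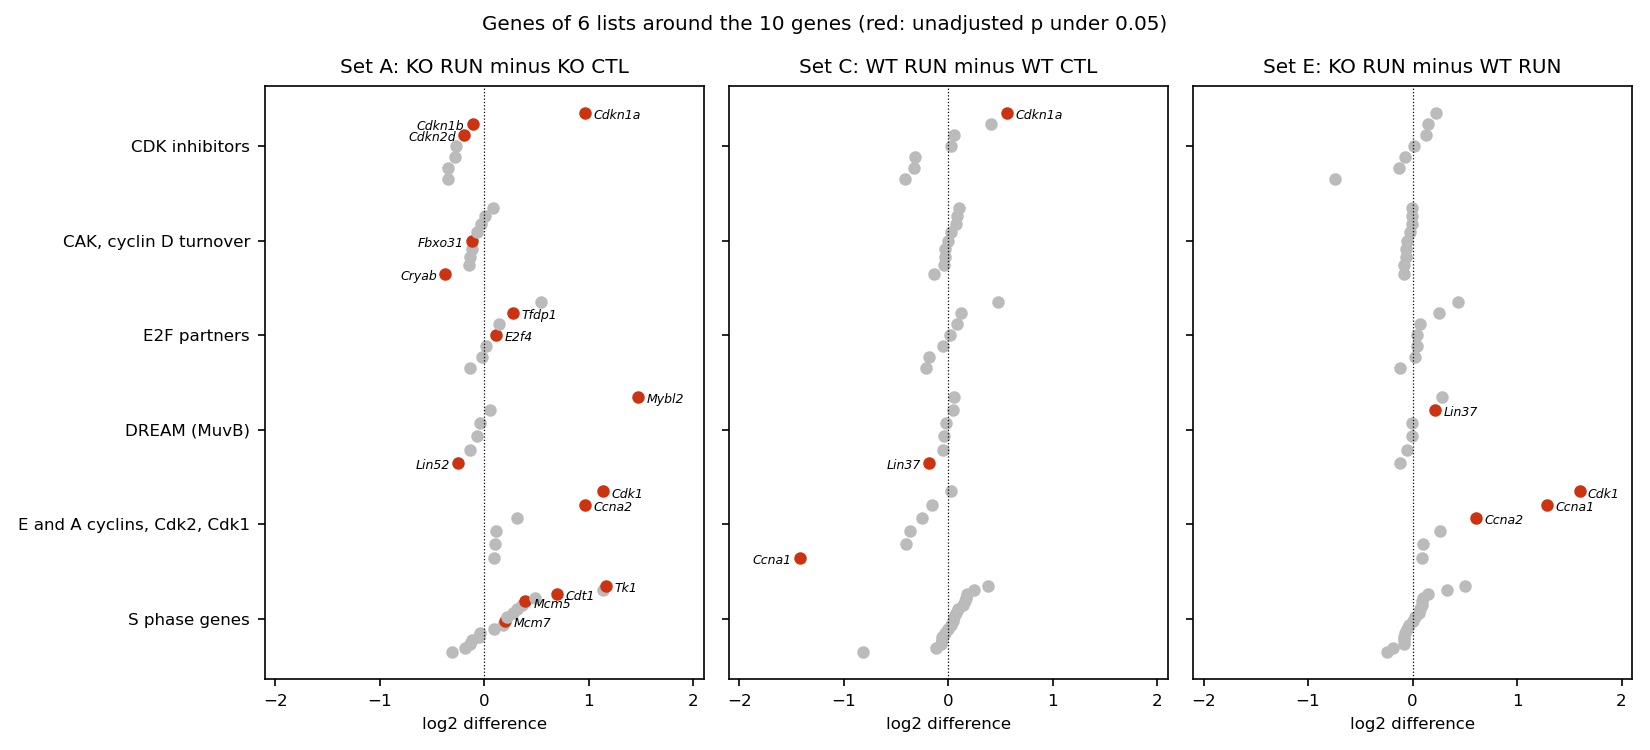
log2 difference (horizontal axes) of each tested gene of 6 lists (rows, 1 point per gene, ordered by value within a list) in Sets A, C and E, in red and named where the unadjusted p is under 0.05. Set A has 15 red points, 10 of them higher after running, and Set E has 4, all higher in KO RUN.

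Over the 16 libraries, the genes most like each D cyclin and kinase were looked for among 14438 genes that averaged 1 TPM or more, by Pearson's r of log2 scaled TPM. The points share the 4 groups and the depth of their libraries, so r is given as a description. Ccnd1 was most like Tmem59l and Gng4 (r 0.897 for both), Ccnd2 like Mcur1 (0.923) and Mapre2 (0.91), and Ccnd3 like Arid5a (0.881) and Zbtb4 (0.866). Cdk4 was most like Cenpv (0.856) and Bphl (0.823), and Cdk6 like Zfp263 (0.934) and Csmd3 (0.92). None of these 10 nearest genes was itself one of the genes described, although Rbl1, below 1 TPM, was not among those searched.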

How the data were processed

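Groups and replicate numbers were taken from the labels. According to the study's methods and processing notes, the authors demultiplexed with bcl2fastq 2.20, masked adapters with cutadapt 1.11, trimmed with ERNE, aligned reads to mm10 with STAR and ran StringTie on each library. The deposited TPM values are StringTie abundances per gene, corrected for length. The FPKM values, per the file headers, stem from the same run and were not used in tests. The coverage values, as deposited, are mean read depths per base of a gene, and served as the measure of depth. Versions of STAR and StringTie are not given in the sources used here, and the tables hold no counts, so counting error is unknown.

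Entries of the same gene name were summed. Libraries were scaled by their median ratio to an average library, taken over the 13226 genes that reached 1 TPM in each of the 16. Genes averaging 0.1 TPM or more entered the tests as log2(scaled TPM + 0.1), a scale that understates changes of low genes, with limma 3.58.1 in R 4.3.3 (empirical Bayes, variance trend). Each Set used its 8 libraries, and the averaged and interaction fits used all 16. A call is an unadjusted p under 0.05, the threshold of the study, with the Benjamini-Hochberg value over all 17317 genes beside it. Intervals are 95% intervals of limma. Permutation tests were two-sided and exact over 70 splits (smallest p 0.0286) or, within strata, 4900 splits (smallest p 0.000408). The fits were tested on simulated data.

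The members and lists were chosen with earlier results of these data known. All 10 members are named, genes of the pathway lists where an unadjusted p was under 0.05, and the 2 genes of highest r for each D cyclin and kinase. Promoters are RefSeq windows matched by symbol (7 of 10 members). Overlapping genes are from GENCODE. Alternatives were other filters, quantile normalization, unscaled TPM, a pseudocount of 1 or 0.01, no variance trend, 1 fit of all libraries, each library left out and, added after seeing the data, 3 libraries left out together.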

Additional observations from a re-analysis of the deposited data

Results flagged for a closer look

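Of 40 sets of 4 values (10 genes in 4 groups), 1 had a sample far from the others by Dixon's criterion, which chance flags in about 1 of 20 such sets. E2f3 in library 13 of p16 KO RUN was 27.5 TPM, below the other 3 libraries of that group at 31.0 to 31.3 TPM, with a gap of 0.913 of the group's range, above Dixon's 95% critical value for 4 values.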

How the results depend on the processing

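No paired analysis was possible because the replicate numbers run from 1 to 16 and none is used in 2 groups. None of the 11 single differences past the threshold changed sign in 212 alternative fits, and 146 of these fits kept the call. The number of the 10 genes past the threshold depended more on the setting. Quantile normalization gave 1 in Set A, 0 in Set B and 0 in Set C. A filter at a mean of 1 TPM, under which Rbl1 is no longer tested, and a pseudocount of 0.01 each gave 0 in Set B. Without the variance trend the count was 0 in Set C, 1 in Set D and 1 for the interaction (Rbl1), and a pseudocount of 1 also gave 1 for the interaction. No filter and 1 fit of all 16 libraries each gave 1 in Set D. Leaving out libraries 2, 6 and 7 together, a choice made after seeing the data, gave 1 in Set A, 0 in Set B, 1 for running averaged over genotypes and 0 for genotype averaged over running. With 1 library left out at a time, the counts ran from 1 to 3 in Set A, 0 to 3 in Set B, 0 to 2 in Set C, 1 to 2 in Set D, 0 to 2 in Set E, 2 to 5 for running, 0 to 2 for genotype and 0 to 1 for the interaction. The causes were not tested, apart from the filter on Rbl1. Over all genes, the count in Set B was 1158 with all libraries, 558 to 731 without any one of libraries 1, 3, 4, 6 and 7, 2328 without library 5 and 3029 without library 2, and 1 fit of all libraries gave 2205. In Set A it was 3196 and fell to 2059 without library 6, 2018 without library 7 and 1472 without libraries 2, 6 and 7. In Set C it fell from 833 to 536 without library 10, and in Set E it rose from 671 to 1048 without library 12. For genotype it went from 1202 to 1863 without library 2, 786 without library 1 and 697 without library 7, for the interaction from 949 to 2378 without library 2, 1970 without library 5 and 621 without library 3, and for running from 3030 to 1499 without libraries 2, 6 and 7. The background shares of called genes move with these counts. Depth limits Rbl1 and Cdk6 most, with a mean coverage under 8 reads per base in every library.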
